A study of Homo sapiens with 4 samples.

Results

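Poly(A) RNA of H1 cells, an established human embryonic stem cell line, was read here for 10 genes that encode caveola proteins, AHNAK proteins and galectins: CAV1, CAV2, CAVIN1, CAVIN3, EHD2, PACSIN2, AHNAK, AHNAK2, LGALS1 and LGALS3. They were chosen by name, with the difference between MEK5DD and WT in these same libraries already known, so that difference is described and supports nothing further. All 10 were found among 17472 listed genes, and all 10 were abundant enough to be tested. The WT group holds 2 libraries of unmodified H1 cells. The MEK5DD group holds 2 libraries of an H1 line that received, by lentivirus and under puromycin selection, a MAP2K5 sequence with 2 serines replaced by aspartate. MAP2K5 (MEK5) is the kinase that activates MAPK7 (ERK5). All 4 cultures were kept in E8, a defined medium that supplies insulin, FGF2 and TGF-beta. No library comes from cells that went through lentivirus and puromycin without the MAP2K5 sequence, so vector, selection and MEK5DD cannot be told apart. The labels describe 1 MEK5DD line and do not say whether replicates were separate cultures, so the spread behind each p-value may be technical only.

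Caveolae are flask-shaped pits of the plasma membrane. Caveolins insert into the inner leaflet as a scaffold, cavins coat it from the cytoplasm, EHD2 forms an ATP-driven ring at the neck, and the F-BAR protein PACSIN2 bends the membrane during assembly. AHNAK is a giant scaffold protein beneath the plasma membrane that is anchored by the annexin A2 and S100A10 complex, and AHNAK2 is its large relative. Galectins are lectins that bind beta-galactosides on glycoproteins and glycolipids at the cell surface.

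The 250 bases before the start of 5 of these genes are shown because CAV1 and CAV2 are adjacent genes with like differences, and AHNAK and AHNAK2 are relatives with unlike ones, with LGALS3 for the galectins. Sequences are RefSeq's for GRCh38.p14, read 5′ to 3′ on the gene's strand from the entry listed first for each gene. CAV1 is at chr7:116524759-116525008 (plus strand), CAV2 at chr7:116499488-116499737 (plus), AHNAK at chr11:62545827-62546076 (minus), AHNAK2 at chr14:104978375-104978624 (minus) and LGALS3 at chr14:55129002-55129251 (plus). Capitals mark a match, on either strand, to any of 6 motifs: AP-1 (TGANTCA), the SRF CArG box, TEAD (GGAATG), SP1 and KLF (GGGCGG), MEF2 and SMAD (CAGACA).
CAV1: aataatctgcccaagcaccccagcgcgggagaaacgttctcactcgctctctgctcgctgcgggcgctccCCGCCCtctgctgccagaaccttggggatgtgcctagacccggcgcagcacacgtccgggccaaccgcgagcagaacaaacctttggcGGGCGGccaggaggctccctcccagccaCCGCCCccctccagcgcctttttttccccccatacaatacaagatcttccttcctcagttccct
CAV2: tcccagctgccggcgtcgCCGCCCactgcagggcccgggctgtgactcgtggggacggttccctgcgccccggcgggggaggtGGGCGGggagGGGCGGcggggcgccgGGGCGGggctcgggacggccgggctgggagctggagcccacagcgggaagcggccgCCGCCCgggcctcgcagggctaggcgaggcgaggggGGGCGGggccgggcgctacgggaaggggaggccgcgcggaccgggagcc
AHNAK: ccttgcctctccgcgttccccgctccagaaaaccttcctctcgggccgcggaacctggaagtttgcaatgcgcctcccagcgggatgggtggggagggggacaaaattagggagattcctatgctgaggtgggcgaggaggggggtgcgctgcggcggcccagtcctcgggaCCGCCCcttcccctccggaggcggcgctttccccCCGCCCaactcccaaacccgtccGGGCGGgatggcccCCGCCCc
AHNAK2: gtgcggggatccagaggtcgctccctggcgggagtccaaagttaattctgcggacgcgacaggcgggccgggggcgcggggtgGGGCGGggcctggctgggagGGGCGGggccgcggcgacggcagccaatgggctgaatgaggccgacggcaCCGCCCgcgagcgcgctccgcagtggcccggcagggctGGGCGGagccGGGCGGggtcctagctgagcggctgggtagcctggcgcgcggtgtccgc
LGALS3: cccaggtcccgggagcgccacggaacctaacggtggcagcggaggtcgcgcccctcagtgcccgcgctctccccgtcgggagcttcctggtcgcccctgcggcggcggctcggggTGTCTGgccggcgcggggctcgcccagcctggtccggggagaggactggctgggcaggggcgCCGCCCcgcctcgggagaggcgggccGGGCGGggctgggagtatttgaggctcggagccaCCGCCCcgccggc

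Every capital run in these windows was the SP1 and KLF motif or its reverse complement, apart from 1 SMAD match in LGALS3. The SP1 and KLF motif occurred 3 times in CAV1, 6 times in CAV2, 4 times in AHNAK, 5 times in AHNAK2 and 3 times in LGALS3. Over windows of 300 bases (250 before the start and 50 after), 7 of the 10 genes had 16 entries in all, since some genes have more than 1 listed start. The SP1 and KLF motif was present in 11 of the 16 entries, and in 45.0% of 35116 windows of all genes. Each of the 7 genes, EHD2 and PACSIN2 included, held it in at least 1 entry, though the entry listed first for PACSIN2 did not. The TEAD motif lay in 5 of the 16 entries, all of AHNAK or PACSIN2 (14.0% of all windows), and the SMAD motif in 5 entries, of CAV1, LGALS3 or PACSIN2 (16.9%). Some entries of CAV1 and of PACSIN2 overlap, and overlapping PACSIN2 entries repeat the same TEAD and SMAD sites. In the entries listed first, 2 of the 7 genes held the TEAD motif, 2 the SMAD motif and 6 the SP1 and KLF motif. AP-1, CArG box and MEF2 letters were absent from the 16 entries and were present in 7.71%, 1.29% and 2.99% of all windows. These are matches of letters only. CAVIN1, CAVIN3 and LGALS1 had no entry.

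The libraries held 14908486 to 17628945 recovered reads, that is, deposited normalised counts turned back into whole reads. MAP2K5 was 344 and 315 in WT and 3382 and 3558 in MEK5DD (log2 fold change 3.40), and gene counts do not separate the introduced sequence from the native transcript. All 8 preset markers of pluripotent stem cells were listed, with a summed level of 120977 to 123138 in WT and 118165 to 124894 in MEK5DD, most of it from POU5F1 and LIN28A, which were not called. Among the 8, NANOG was called higher (log2 0.26, adjusted p = 0.0117, limma) and SOX2 lower (log2 -0.20, adjusted p = 0.0437, limma). Neither call held on leaving out WT replicate 1 (adjusted p = 0.167 for NANOG and 0.486 for SOX2, limma) or WT replicate 2 (0.262 and 0.349). Values below are normalised read counts, and fold changes compare MEK5DD with WT on the log2(count + 1) scale, which understates changes of low genes. A gene is said to be called, or to have risen or fallen, when the adjusted p of limma over all 15721 genes tested was below 0.05.

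In MEK5DD cells 8 of the 10 genes were called higher and 0 lower. Over all genes tested 14.2% were called, 7.69% higher and 6.47% lower. The caveolin genes CAV1 and CAV2, the neck gene EHD2, the scaffold gene AHNAK and the galectin genes LGALS1 and LGALS3 rose between 2.79-fold and 3.96-fold. CAVIN1 rose 1.85-fold and CAVIN3 1.42-fold, and PACSIN2 and AHNAK2 were not called. At least a 2-fold rise together with a call was met by 6 of the 10 genes and by 1.32% of all genes tested. Each of the 10 had both MEK5DD values above both WT values, as did 28.2% of all genes tested. Their median log2 fold change was 1.504, beside -0.0023 over all genes tested. Since the genes were picked with this contrast known, nothing is read from these shares. In bulk RNA, a change in the number of cells of a type and a change in RNA per cell cannot be told apart.

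**Figure D1:**
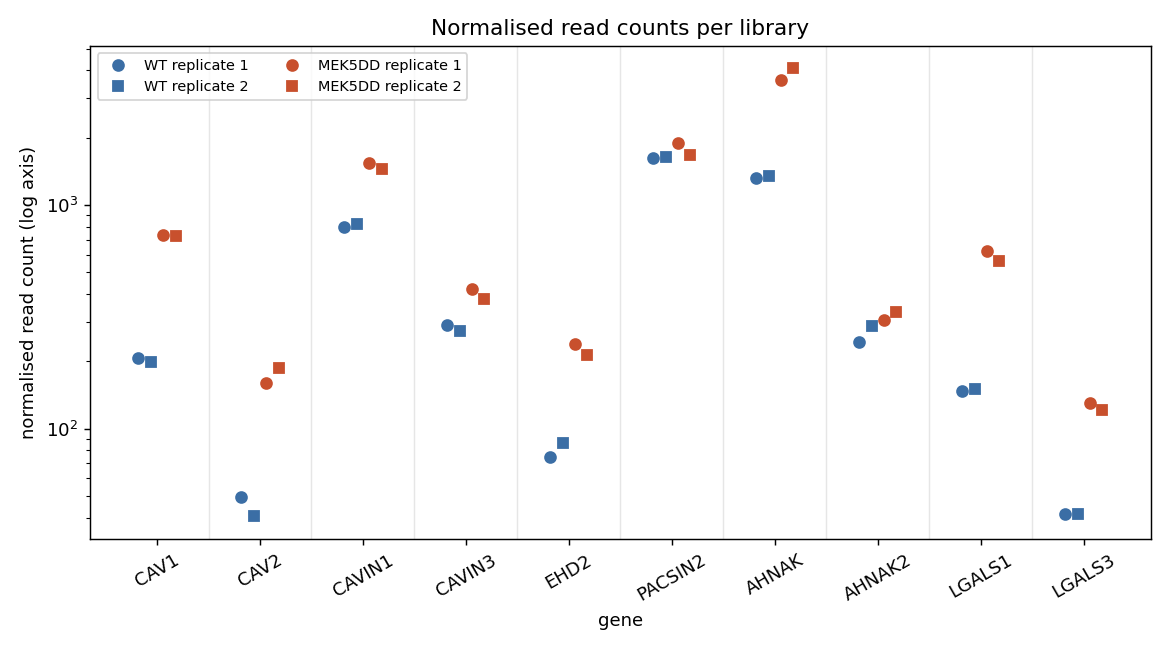
Normalised read count (log axis) of each of the 10 genes in the WT libraries (blue) and MEK5DD libraries (orange), with circles for replicate 1 and squares for replicate 2. The groups lie apart for every gene, widely for CAV1 (198 and 208 against 726 and 735) and narrowly for AHNAK2 (243 and 286 against 307 and 331).

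CAV1 encodes caveolin-1, a main structural protein of caveolae. Its normalised count was 208 and 198 in WT and 735 and 726 in MEK5DD. The replicates of each group lay close together and the groups far apart. The mean went from 203 ± 7.05 to 730 ± 6.73 (SD, n = 2 each). This rise of 3.59-fold (log2 1.84, SE 0.10, adjusted p = 1.94e-07, limma) ranked 55th of 15721 genes by log2 fold change. CAV2 encodes caveolin-2, which forms hetero-oligomers with caveolin-1. It was lower, at 49.3 and 40.6 in WT and 160 and 187 in MEK5DD. Its replicates spread more, and only 39 to 56 reads stood behind each WT value. The rise was 3.80-fold (log2 1.93, SE 0.18, adjusted p = 2.45e-05, limma).

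The caveolin genes lie 16.2 kb apart on the same strand of chromosome 7 (GRCh38, GENCODE v29: CAV2 at 116287380 to 116508541, CAV1 at 116524785 to 116561184). The RefSeq starts used for the sequences above differ from the GENCODE gene starts. The CAV2 sequence lies inside its GENCODE span, as do those of AHNAK and LGALS3 and most of that of CAV1. The AHNAK2 sequence lies outside its span. The count of CAV1 was 4.21 and 4.87 times that of CAV2 in the WT libraries and 4.60 and 3.87 times in the MEK5DD libraries. These ranges overlap, so the ratio of the caveolins did not separate the groups. The nearest listed gene before CAV2 is TES, which encodes the focal adhesion protein testin. It had 1353 and 1260 counts in WT and 2095 and 2037 in MEK5DD, a 1.58-fold rise (log2 0.66, SE 0.07, adjusted p = 7.00e-05, limma) whose adjusted p was 0.0512 in limma without the mean-variance trend. On the other side of CAV1 lies MET, the receptor gene for hepatocyte growth factor, with 265 and 206 in WT and 284 and 347 in MEK5DD. MET was not called (log2 0.42, SE 0.14, adjusted p = 0.0674, limma). Its log2 fold change ranged from 0.24 to 0.60 as each library was left out. The fits without WT replicate 1 and without MEK5DD replicate 1 called it, each assuming that the lone library varies like the other group. The nearest listed genes on either side of the 10 that are not members number 18, leaving out genes that overlap a member. Of these 18, 1 was called higher (TES), 2 lower (CCKBR and ATP6V0A1) and 15 were not called, with a median log2 fold change of 0.04. Over all genes tested 14.2% were called, so nothing particular to these neighbours is read from the count. CCKBR, a gastrin and cholecystokinin receptor gene beside CAVIN3, fell from 71.2 ± 0.993 to 22.5 ± 3.48 (SD, n = 2 each; log2 -1.63, SE 0.24). ATP6V0A1, a proton pump subunit gene beside CAVIN1, fell by 0.32 on the log2 scale. This call was lost without WT replicate 1, without WT replicate 2, without the trend and with DESeq2.

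CAVIN1 encodes the cavin that caveola formation requires. Its counts were 794 and 822 in WT and 1541 and 1446 in MEK5DD, far above those of CAV1 in each library. It rose 1.85-fold (log2 0.88, SE 0.08, adjusted p = 1.14e-05, limma). CAVIN3, a cavin that binds cavin-1 and takes part in caveola trafficking, had 292 and 273 in WT and 421 and 381 in MEK5DD. This was the smallest called difference among the 10 (1.42-fold, log2 0.50, SE 0.10, adjusted p = 0.00737, limma). Its adjusted p rose above the threshold on leaving out WT replicate 2 (0.0617) and in limma without the trend (0.0888). CAVIN3 shares 557 exon bases with the opposite-strand transcript AC068733.3, which is listed at 1.99 to 5.28 counts.

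Ratios within each library set these genes side by side. The count of CAVIN1 was 3.82 and 4.15 times that of CAV1 in WT and 2.10 and 1.99 times in MEK5DD, and the groups did not overlap. CAVIN1 over CAVIN3 was 2.73 and 3.01 in WT and 3.66 and 3.80 in MEK5DD, also apart. These ratios are not per length and were not tested.

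EHD2 had 74.9 and 86.4 counts in WT and 240 and 213 in MEK5DD. The mean rose from 80.7 ± 8.19 to 227 ± 18.8 (SD, n = 2 each), 2.79-fold (log2 1.48, SE 0.15, adjusted p = 4.26e-05, limma). PACSIN2 was the most abundant of the 10 genes per length in WT. It had 1624 and 1640 in WT and 1892 and 1674 in MEK5DD. MEK5DD replicate 1 stood above the other libraries, and MEK5DD replicate 2 lay only slightly above WT. PACSIN2 was not called (log2 0.12, SE 0.08, adjusted p = 0.315, limma). Its log2 fold change was 0.04 without MEK5DD replicate 1 and 0.21 without MEK5DD replicate 2. Only the latter fit called it, and there the lone MEK5DD library is assumed to vary like WT. PACSIN2 shares 155 exon bases with ARFGAP3 on the same strand. ARFGAP3 was itself called higher (339 and 372 in WT, 493 and 487 in MEK5DD, log2 0.46, SE 0.10, adjusted p = 0.00711, limma).

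AHNAK had 1316 and 1354 counts in WT and 3626 and 4087 in MEK5DD, the largest difference in counts of the 10. MEK5DD replicate 2 was the higher library, and both were well above WT. The rise was 2.88-fold (log2 1.53, SE 0.07, adjusted p = 9.21e-08, limma). AHNAK2 had 243 and 286 in WT and 307 and 331 in MEK5DD. The gap between the groups was smaller than that between the WT replicates, and AHNAK2 was not called (log2 0.27, SE 0.12, adjusted p = 0.151, limma). Its log2 fold change ranged from 0.15 to 0.39 as each library was left out. Only the fit without MEK5DD replicate 1 called it, and there the lone MEK5DD library is assumed to vary like WT. AHNAK over AHNAK2 was 5.41 and 4.73 in WT and 11.8 and 12.4 in MEK5DD. These ratios lay apart, and the difference between the relatives was not tested. AHNAK spans chromosome 11, 62433542 to 62556235, and AHNAK2 chromosome 14, 104937244 to 104978357, both on the minus strand of GRCh38.

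LGALS1 encodes galectin-1, a dimeric lectin secreted by many mesenchymal cells. It had 147 and 151 counts in WT and 625 and 563 in MEK5DD. Its rise, from 149 ± 2.78 to 594 ± 43.9 (SD, n = 2 each), was the largest of the 10 (3.96-fold, log2 1.99, SE 0.11, adjusted p = 2.67e-07, limma) and ranked 45th of 15721. On leaving out WT replicate 1 or MEK5DD replicate 1 CAV2 had the larger log2 fold change (2.06 and 2.04, against 1.97 and 1.91 for LGALS1). LGALS3 encodes galectin-3, whose long N-terminal tail lets it form higher oligomers. It had 41.4 and 41.7 in WT and 130 and 122 in MEK5DD, from 40 and 47 reads in the WT libraries. LGALS3 rose 2.98-fold (log2 1.57, SE 0.18, adjusted p = 0.000128, limma). LGALS1 over LGALS3 was 3.55 and 3.63 in WT and 4.81 and 4.63 in MEK5DD. LGALS1 lies on chromosome 22 (37675608 to 37679806) and LGALS3 on chromosome 14 (55124110 to 55145413), both on the plus strand.

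**Figure D2:**
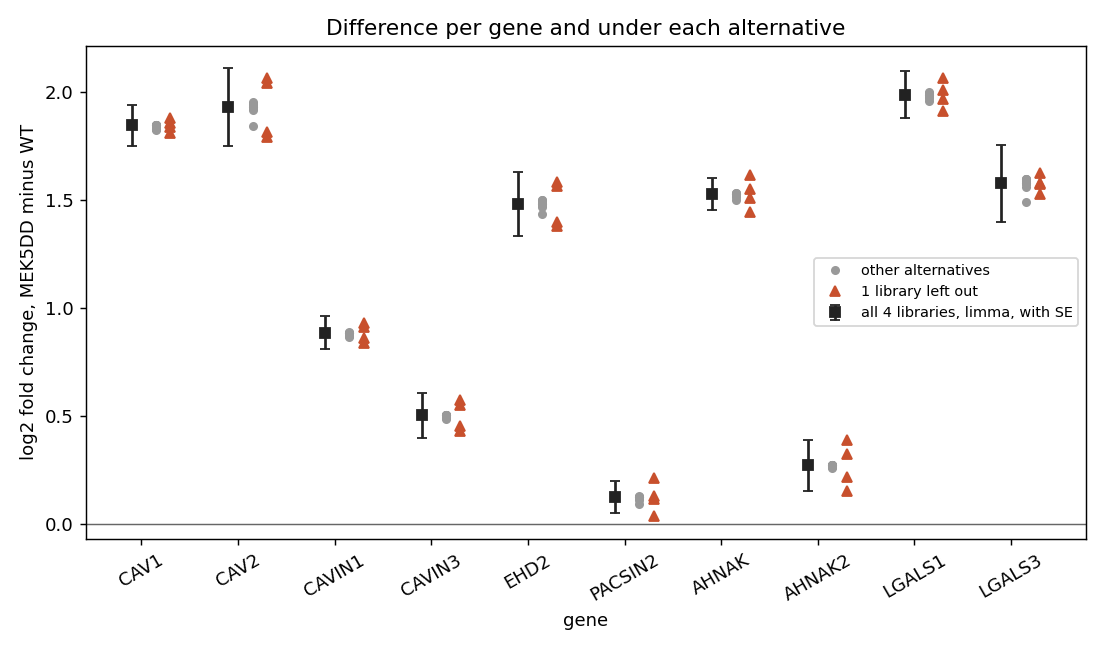
Log2 fold change of each gene, MEK5DD minus WT, from limma on all 4 libraries (black squares, bars show the SE), from other processing alternatives (grey) and with 1 library left out (orange triangles). Values for CAV1, LGALS1 and AHNAK stay above 1.4 throughout, and those of PACSIN2 and AHNAK2 lie between 0.04 and 0.39.

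Levels of different genes were compared per kb of exon, using the union of GENCODE v29 exons. In WT the order was PACSIN2 (358 normalised counts per kb), CAVIN1 (211), CAVIN3 (169), LGALS1 (136), AHNAK (68.6), CAV1 (49.7), EHD2 (20.6), LGALS3 (17.3), AHNAK2 (14.1) and CAV2 (6.49). Neighbours in this order did not overlap between their WT libraries. In MEK5DD LGALS1 came first (541 counts per kb), above 92.7% of 15402 genes with a length, where in WT it was above 69.4%. PACSIN2 (392) and CAVIN1 (390) overlapped, followed by CAVIN3 (240), AHNAK (198), CAV1 (179), EHD2 (57.8), LGALS3 (52.5), CAV2 (25.1) and AHNAK2 (17.0). AHNAK replicates (186 and 210) and CAV1 replicates (180 and 178) lay near each other. The order depends on the length used. By the longest coding transcript the WT level of LGALS1 was 266 per kb, above CAVIN3 (240) and CAVIN1 (211), and CAV2 (13.6) lay close to AHNAK2 (14.5).

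**Figure D3:**
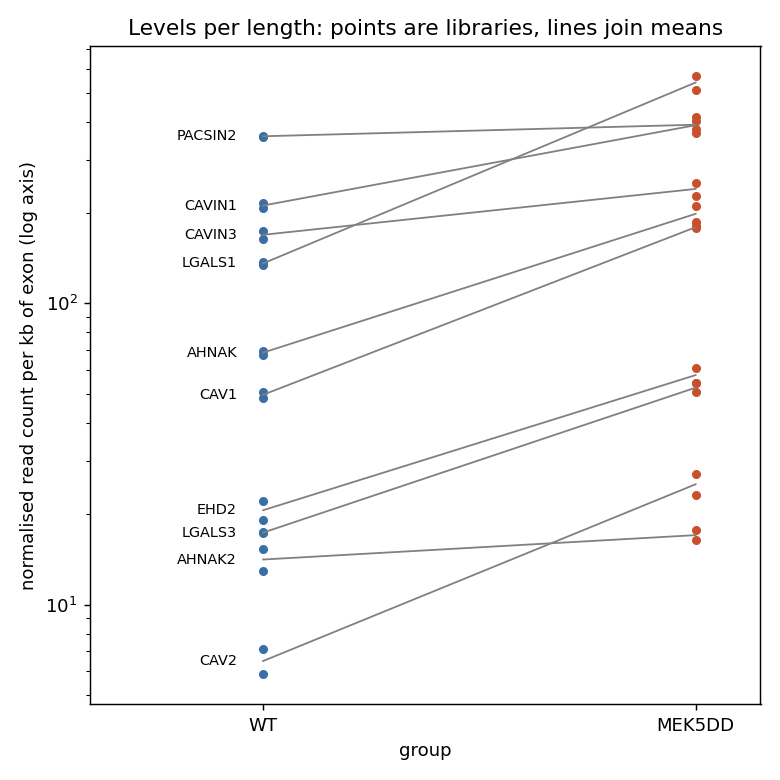
Normalised read count per kb of exon (log axis) in WT and MEK5DD, with points for libraries and lines joining group means. LGALS1 goes from the fourth place to the first, and CAV2 crosses AHNAK2.

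The 3 genes whose pattern over the 4 libraries lay nearest to that of LGALS1, among 10778 other genes with a mean of at least 100, were DLL3, DACT1 and KLF6. The measure was the root mean square distance of centred log2(count + 1) values, which was 0.04 for DLL3, 0.05 for DACT1 and 0.08 for KLF6. DLL3, a Notch ligand gene, had 203 and 218 in WT and 842 and 793 in MEK5DD. DACT1 encodes a Dishevelled-binding protein and had 157 and 177 in WT and 672 and 622 in MEK5DD. The zinc finger factor gene KLF6 had 517 and 488 in WT and 2127 and 2121 in MEK5DD. With 4 libraries in 2 groups this likeness rests mostly on the size of the group difference.

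Other genes of the same machinery were read from lists of known members, also drawn up with earlier results of these data known. Over all genes tested 7.69% were called higher and 6.47% lower, with a median log2 fold change of -0.0023. Of 12 other caveola and membrane-shaping genes, CAV3 and CAVIN2 are not listed and were not analysed here, and 1 of the 10 tested was called higher and 1 lower, with a median log2 fold change of 0.09. EHD1, an EHD family gene of endosome recycling, had 622 and 597 in WT and 822 and 778 in MEK5DD (log2 0.39, SE 0.08), not called on leaving out WT replicate 2 (adjusted p = 0.111, limma) or without the trend. DNM1, the dynamin gene of neurons, fell by 0.37 on the log2 scale (SE 0.10), a call lost without WT replicate 1, without WT replicate 2 (adjusted p = 0.234), without the trend and with DESeq2. The relatives EHD3, EHD4, PACSIN1 and PACSIN3 and the flotillin genes FLOT1 and FLOT2 were not called. Among 15 genes of F-BAR and N-BAR proteins, which bend membranes, 2 rose and 2 fell (median 0.04). AMPH, the amphiphysin gene, had 154 and 149 in WT and 66.3 and 75.7 in MEK5DD (log2 -1.09, SE 0.16). SH3GL2, the endophilin-A1 gene, fell by 1.01 on the log2 scale (SE 0.20), not called on leaving out WT replicate 1 (adjusted p = 0.0684, limma) or without the trend. TRIP10, which encodes the CDC42-binding protein CIP4, rose 1.36-fold, also lost without the trend (adjusted p = 0.121).

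AHNAK partners and membrane repair genes had 6 of 12 members called higher and 0 lower, with a median log2 fold change of 0.37. The shares over all genes tested were 7.69% higher and 6.47% lower. As this list was drawn up with earlier results of these data known, nothing is read from its count. ANXA2, whose protein anchors AHNAK at the membrane, had 2420 and 2243 in WT and 6706 and 6078 in MEK5DD (2.74-fold, log2 1.45, SE 0.07). Its partner gene S100A10 had 1233 and 1319 in WT and 3355 and 2877 in MEK5DD (2.44-fold, log2 1.28, SE 0.08). ANXA1, a phospholipid-binding annexin gene, was low in WT (15.9 and 14.6) and reached 104 and 156 in MEK5DD (7.95-fold, log2 2.99, SE 0.25). These 3 passed under every alternative run. The repair genes DYSF and MYOF had log2 fold changes of 0.30 and 0.72 and were not called.

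Of 20 other galectin and galectin ligand genes 9 were listed and 8 tested, with 1 called higher and 1 lower (median 0.02). The shares over all genes tested were 7.69% higher and 6.47% lower. LGALS9, a tandem-repeat galectin gene, was low, at 10.6 and 13.5 in WT and 23.6 and 36.9 in MEK5DD (log2 1.24, SE 0.36). Its call was lost without WT replicate 1 and without MEK5DD replicate 2 (adjusted p up to 0.143, limma), without the trend and with DESeq2. LGALS8, another tandem-repeat galectin gene, was not called. LGALS3BP, which encodes a secreted glycoprotein ligand of galectin-3, fell from 322 ± 12.5 to 203 ± 12.9 (SD, n = 2 each; log2 -0.66, SE 0.11), a call lost without the trend (adjusted p = 0.0571). It thus went the opposite way from LGALS3. Cholesterol genes were read because caveolae are rich in cholesterol: of 16, 1 rose (LSS, log2 0.22) and 2 fell, among them SC5D (-0.32), with a median of -0.03. The calls of LSS and SC5D were lost without WT replicate 1, without WT replicate 2 and without the trend, and that of LSS also with DESeq2 and with upper-quartile or quantile scaling.

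**Figure D4:**
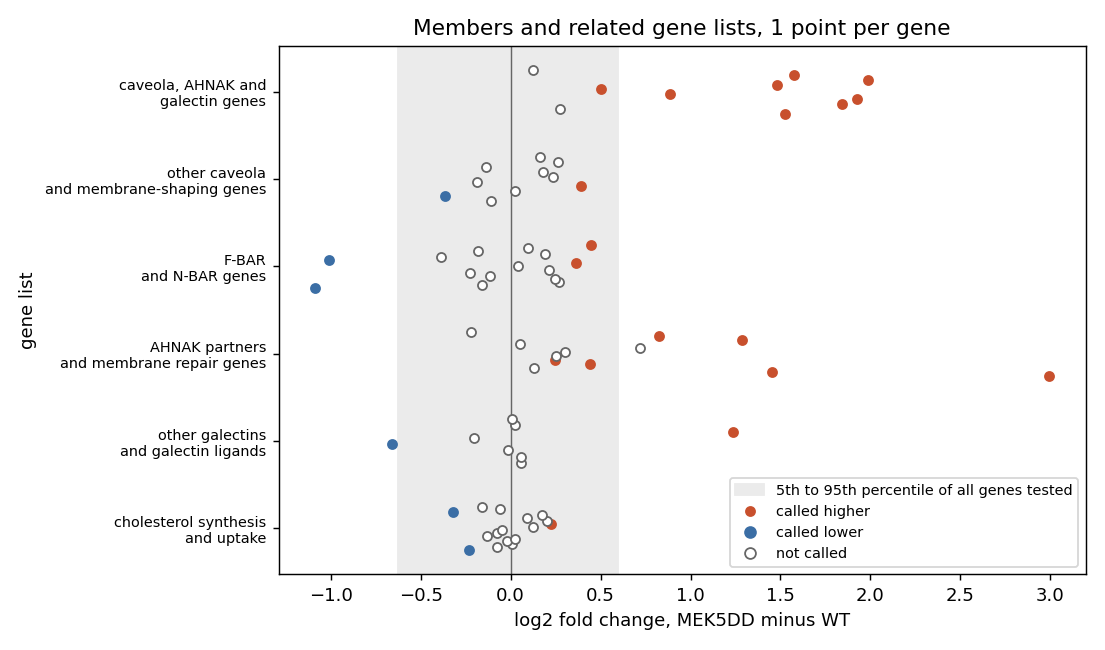
Log2 fold change (MEK5DD minus WT) of each tested gene in the 10 members and 5 related lists, with filled points for called genes, open points for genes not called and a grey band from the 5th to the 95th percentile of all genes tested. Beyond the band on the right lie 7 of the 10 members and, in the other lists, ANXA1, ANXA2, S100A10, S100A11, MYOF and LGALS9. Beyond it on the left lie AMPH, SH3GL2 and LGALS3BP.

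CAV1, CAVIN1 and LGALS1 are also abundant in mesenchymal cells, so markers of other cell types were read beside them. The shares over all genes tested were 7.69% higher and 6.47% lower. Of 8 fibroblast markers COL3A1, DCN, LUM and POSTN are not listed, and 2 of the other 4 rose, COL1A1 (log2 0.64) and COL1A2 (0.75). THY1 (0.10), which holds most of the summed level, and PDGFRB (-0.39) were not called. The summed level of the listed markers was 7016 to 7111 in WT and 8106 to 8413 in MEK5DD. Every listed gene has reads in all 4 libraries, so a marker not listed may still have had reads in some of them. Of 6 smooth muscle markers ACTA2 is not listed, and TAGLN (log2 1.02), CNN1 (0.59) and DES (1.38) rose among the 5 tested, while MYH11 (-0.35) and LMOD1 (-0.38) were not called and had both MEK5DD values below both WT values, as PDGFRB had. The smooth muscle sums were 611 to 621 in WT and 1079 to 1171 in MEK5DD. The calls of COL1A1 and CNN1 were lost without the trend (adjusted p = 0.0581 and 0.111, limma). Of 8 endothelial markers PECAM1, CDH5 and EMCN are not listed, and 1 of 4 tested rose (TEK, log2 1.55) and 1 fell (ERG, -1.71). The endothelial sums were 146 to 164 in WT and 131 to 133 in MEK5DD. Of 6 epithelial markers KRT5, KRT14, KRT17 and TP63 are not listed, KRT7 fell (log2 -0.85) and KRT19 was not called. The KRT7 call was lost without WT replicate 1, without the trend and with DESeq2. The epithelial sums were 975 to 981 in WT and 886 to 1017 in MEK5DD. Some smooth muscle and fibroblast markers and the endothelial marker TEK were thus higher where the caveola and galectin genes were higher. Other markers were not, and ERG and KRT7 were lower. The part of these markers in the result was not tested.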

How the data were processed

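Poly(A) RNA of 4 H1 libraries, 2 WT and 2 MEK5DD by their labels, was sequenced as paired-end reads. The deposited signal is gene counts divided by the authors by 1 size factor per library, inferred because all values in a library are multiples of its smallest (tolerance 0.001). Per the submitters' processing notes, the tools were Trimmomatic 0.36, STAR, featureCounts 1.5.3 and DESeq2 1.26.0, with hg38. Annotation and strand setting: not given in the sources used here.

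The main test was limma 3.58.1 (R 4.3.3) on log2(value + 1), trend on, for 15721 genes reaching 10 in 2 or more libraries, with two-sided p adjusted by Benjamini-Hochberg. Alternatives were other pseudocounts, filters and scalings, no trend, a replicate block, each library left out, and edgeR 4.0.16 (2306 genes called) and DESeq2 1.42.0 on recovered reads. The procedure was tested on simulated data. GENCODE v29 gave coordinates and exon lengths, and RefSeq the promoters.

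The members and lists were chosen with earlier results of these data known. Named beside them are MAP2K5, up to 3 called genes per list with the largest change, chromosomal neighbours and the 3 genes nearest in pattern to LGALS1, the member that rose most with all 4 libraries. EHD3, EHD4, PACSIN1, PACSIN3, FLOT1, FLOT2, DYSF, MYOF, S100A11, LGALS8 and the markers were named after their values were seen. A gene taken by this rule is not reported here, though counts include it. The labels give no batch.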

Additional observations from a re-analysis of the deposited data

How the results depend on the processing

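Over 14 alternatives, 7 of the 10 genes were called higher under each, and none of the 10 changed direction. The number of the 10 called was 7 without the mean-variance trend, and 7 to 9 as each library was left out. Over all genes the count was 439 without the trend, 1358 with DESeq2 and 1157 to 4608 as each library was left out, against 2226. Over the related lists it was 17, 5 without the trend and 9 to 29 as each library was left out. The related lists held 61 tested genes in each of these fits. Their 17 calls stand beside 2226 of all 15721 genes tested (14.2%), and their 5 without the trend beside 439 of 15721. As the lists were drawn up with earlier results of these data known, nothing is read from these counts. Of all genes, 15420 to 15485 were tested as each library was left out. With 1 library left out, the lone library is assumed to vary like the other group. Replicate numbers did not pair the samples: deviations of the libraries numbered 1 correlated at 0.05 over genes, and a replicate block called 3349 genes, 8 of the 10 members, 23 genes of the related lists and MET (adjusted p = 0.00426, limma). In the 250 bases before the start alone, the motif shares were 6.57% (AP-1), 1.16% (CArG box), 11.9% (TEAD), 42.6% (SP1 and KLF), 2.80% (MEF2) and 13.6% (SMAD). The per-kb levels by longest transcript were added after the data were seen. CAV2 and LGALS3 rest on under 60 reads per WT library, which limits the precision of their folds.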
